A study of Homo sapiens with 9 samples.

Results

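The genes described here are 10 members of the VEGF, PDGF and KIT signalling systems, chosen by gene symbol. They are the receptor tyrosine kinases KDR, FLT1, FLT4, KIT, PDGFRA and PDGFRB and the ligands VEGFA, VEGFC, PGF and PDGFC. All 10 were found among the 58381 genes of the deposited tables, and all 10 passed the filter on low counts that left 17235 genes for testing. VEGFC passed through the ETS1-High libraries, since it had at most 10 counts in any other library.

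The libraries were made from TC-32, a human Ewing sarcoma cell line, and the fusion oncogene EWSR1::FLI1 was present in all 3 groups. Cells of every group carried the lentiviral vector pLOC. It held a red fluorescent protein in the RFP control group, and a human ETS1 cDNA in the ETS1-Low and ETS1-High groups. Transduced cells were selected with puromycin and sorted as single cells. ETS1-High is described as clones whose ETS1 matches that of cells depleted of the fusion, and ETS1-Low as expressing less. How many clones a group holds is not given in the sources used here, so an effect of ETS1 and a difference between clones cannot be told apart. Each group had 3 libraries, and p-values measure the spread between these libraries. ETS1, the introduced transcription factor, was at 1.81, 2.03 and 2.15 CPM (counts scaled to library depth) in RFP, 10.6, 10.9 and 10.3 CPM in ETS1-Low and 19.4, 18.2 and 19.7 CPM in ETS1-High, in the order of the labels. Gene-level counts do not separate the introduced from the native ETS1 transcript.

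These receptors are transmembrane proteins that dimerise when a secreted ligand binds, and then phosphorylate each other and recruit signalling enzymes. KDR and FLT1 bind VEGFA, FLT1 also binds PGF, and FLT4 is the main receptor of VEGFC. PDGFC activates PDGFRA, and KIT answers to stem cell factor. KDR, FLT1 and FLT4 are best known from blood and lymphatic vessels and the PDGF receptors from mesenchymal cells and pericytes, and KIT has been found in a share of Ewing sarcomas.

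Promoter sequence is shown for 2 pairs of genes whose levels moved alike: KDR and PGF, which fell most in both ETS1 groups, and FLT1 and VEGFC, which were lowest in ETS1-Low and highest in ETS1-High. Each line holds the 250 bases before the transcript start, 5′ to 3′ on the strand of the gene (RefSeq, GRCh38.p14), with the ETS core GGAA or its reverse TTCC in capitals. Where RefSeq gives more than 1 start, the one nearest to the GENCODE gene start was used.
KDR, chr4:55125596-55125845, minus strand: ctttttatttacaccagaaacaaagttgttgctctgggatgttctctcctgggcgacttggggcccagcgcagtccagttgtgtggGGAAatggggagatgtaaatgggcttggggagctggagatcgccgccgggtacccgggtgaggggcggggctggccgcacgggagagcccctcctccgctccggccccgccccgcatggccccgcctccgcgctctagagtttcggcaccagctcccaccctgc
PGF, chr14:74955598-74955847, minus strand: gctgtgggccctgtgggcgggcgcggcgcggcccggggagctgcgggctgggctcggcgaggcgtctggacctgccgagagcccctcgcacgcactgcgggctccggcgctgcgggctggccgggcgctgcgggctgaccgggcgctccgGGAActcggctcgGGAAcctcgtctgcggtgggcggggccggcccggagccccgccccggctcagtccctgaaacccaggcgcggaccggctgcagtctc
FLT1, chr13:28495129-28495378, minus strand: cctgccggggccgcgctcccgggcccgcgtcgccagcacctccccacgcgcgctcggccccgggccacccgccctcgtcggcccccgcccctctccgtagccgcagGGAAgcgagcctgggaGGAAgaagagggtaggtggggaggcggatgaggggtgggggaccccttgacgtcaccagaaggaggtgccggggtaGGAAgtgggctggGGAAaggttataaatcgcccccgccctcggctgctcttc
VEGFC, chr4:176792923-176793172, minus strand: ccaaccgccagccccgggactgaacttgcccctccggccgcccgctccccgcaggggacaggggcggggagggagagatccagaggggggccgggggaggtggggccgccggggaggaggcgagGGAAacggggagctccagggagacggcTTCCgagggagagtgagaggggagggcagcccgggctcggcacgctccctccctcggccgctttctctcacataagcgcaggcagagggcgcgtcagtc

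The core was found 1 time before KDR, 2 times before PGF, 4 times before FLT1 and 2 times before VEGFC, counting both strands. GGAA or TTCC stood in 92.7% of 34941 promoter windows of this length, with a median of 3 matches, so a match is ordinary. Neither the tandem repeat GGAAGGAA nor the longer ETS sequence CCGGAAGT, each searched on both strands and each containing the core, was found in these 4 windows. They stood in 3.07% and 3.39% of all windows. The bases G and C made up 65.2% of the KDR window, 80.0% of that of PGF, 73.2% of that of FLT1 and 74.0% of that of VEGFC. Of the 10 members, 7 were matched in the promoter table. FLT4, VEGFA and PDGFC were not.

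Among the VEGF receptors, KDR was nearly lost in both ETS1 groups, FLT4 rose in both, and FLT1 moved in opposite directions. KDR (ENSG00000128052.9; chromosome 4, 55078481 to 55125595, minus strand), the main signalling receptor for VEGFA, was at 45.6, 44.997 and 43.5 CPM in the RFP libraries. The ETS1-Low libraries gave 0.16, 0.31 and 0.20 CPM and the ETS1-High libraries 0.46, 0.58 and 0.38 CPM. No ETS1 library came near an RFP library: their counts were 6 to 26 against 2109 to 2194. Mean CPM was 201.5-fold lower in ETS1-Low and 94.7-fold lower in ETS1-High, with log2 fold changes of -7.61 (SE 0.11; adjusted p 8.79e-47, edgeR) and -6.55 (SE 0.099; adjusted p 1.67e-46, edgeR). Of the small remainder ETS1-High held more than ETS1-Low, by 1.05 on the log2 scale (SE 0.28; adjusted p 0.00185, edgeR). On deposited FPKM (fragments per kilobase, scaled to depth) that last difference did not pass, with adjusted p values of 0.115 to 0.611 (limma). The falls became -3.16 in ETS1-Low and -3.11 in ETS1-High as differences of log2(FPKM + 1), where the added 1 shrinks the change of a scarce gene.

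FLT4 (ENSG00000037280.15; chromosome 5, 180601506 to 180649624, minus strand) measured 4.95, 4.08 and 4.75 CPM in the RFP libraries, 15.8, 14.8 and 15.9 in those of ETS1-Low and 8.89, 9.81 and 8.64 in those of ETS1-High. The groups did not overlap, and ETS1-Low was the highest. The log2 fold change against RFP was 1.75 (SE 0.079; adjusted p 1.00e-25, edgeR) in ETS1-Low and 0.99 (SE 0.083; adjusted p 3.14e-15, edgeR) in ETS1-High. ETS1-High lay below ETS1-Low (log2 fold change -0.77, SE 0.073, adjusted p 4.65e-13, edgeR). The 61 expressed genes within 5 Mb of FLT4 had medians of -0.37 and -0.31 against RFP, opposite to FLT4.

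FLT1 (ENSG00000102755.11; chromosome 13, 28300346 to 28495145, minus strand), which binds VEGFA and PGF and also gives rise to a soluble form that gene-level counts do not separate, was scarce everywhere. It measured 0.35, 0.41 and 0.61 CPM in the RFP libraries, 0.053, 0.089 and 0.15 in those of ETS1-Low and 1.04, 0.91 and 0.76 in those of ETS1-High. These levels rest on 17 to 30, 2 to 6 and 34 to 41 counts per library. FLT1 thus lay below RFP in ETS1-Low (-2.21 on the log2 scale, SE 0.43, adjusted p 1.16e-05 by edgeR) and above it in ETS1-High (0.97, SE 0.29, adjusted p 0.00275). Between the ETS1 groups the difference was 3.18 (SE 0.40; adjusted p 1.14e-09, edgeR). The FPKM values, rounded to 2 decimals, did not call either difference from RFP, with adjusted p values of 0.0704 to 0.264 (limma).

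**Figure D1:**
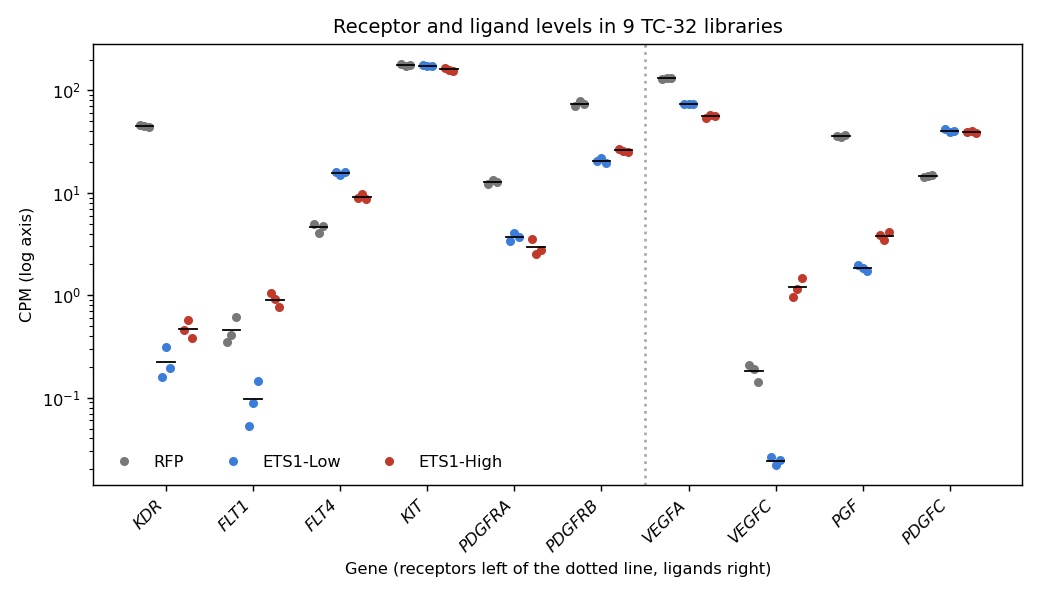
CPM on a log axis for the 6 receptors and 4 ligands in each of the 9 libraries, coloured by group, with the group mean as a black bar. KDR lies at 43.5 to 45.6 CPM in RFP and at most 0.58 CPM in the ETS1 groups, KIT lies between 155.6 and 181.0 CPM throughout, and VEGFC is at 1 count per library in ETS1-Low.

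The class III receptors split into KIT, which hardly moved, and the PDGF receptors, which fell. KIT (ENSG00000157404.15; chromosome 4, 54657267 to 54740783, plus strand), the stem cell factor receptor, measured 181.0, 171.8 and 175.3 CPM in the RFP libraries, 176.5, 173.6 and 171.4 in those of ETS1-Low and 166.8, 158.7 and 155.6 in those of ETS1-High. The RFP and ETS1-Low libraries overlapped, with a log2 fold change of -0.018 (95% interval -0.080 to 0.044; adjusted p 0.603, edgeR). The ETS1-High libraries lay below both, by -0.13 against RFP (95% interval -0.20 to -0.073; adjusted p 0.000121, edgeR) and -0.12 against ETS1-Low (-0.18 to -0.054; adjusted p 0.0011, edgeR). On log2(FPKM + 1) the small differences fell otherwise: -0.25 in ETS1-High against RFP, -0.16 in ETS1-Low against RFP (adjusted p 0.00321, limma) and -0.090 between the ETS1 groups (adjusted p 0.068, limma).

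PDGFRA (ENSG00000134853.11; chromosome 4, 54229280 to 54298245, plus strand), the receptor through which PDGFC signals, was at 12.3, 13.2 and 12.8 CPM in RFP. The ETS1-Low libraries gave 3.39, 4.09 and 3.69 CPM and the ETS1-High libraries 3.58, 2.51 and 2.75 CPM. Both ETS1 groups lay well below RFP, by log2 fold changes of -1.77 (SE 0.093; adjusted p 8.53e-23, edgeR) and -2.12 (SE 0.096; adjusted p 2.11e-25, edgeR). Between ETS1-High and ETS1-Low the libraries overlapped, and the call of -0.35 (adjusted p 0.00711, edgeR) rested on single libraries. It was lost without ETS1-High replicate 2 (-0.24, adjusted p 0.0903) or ETS1-Low replicate 2 (-0.27, adjusted p 0.071), and the sign turned on FPKM values (0.029 and 0.062, adjusted p 0.777 to 0.884).

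PDGFRB (ENSG00000113721.13; chromosome 5, 150113839 to 150155872, minus strand), the receptor of PDGF-B, was the second most abundant receptor per length in RFP, and was at 69.7, 78.9 and 74.1 CPM. The ETS1-Low libraries gave 20.3, 21.8 and 19.4 CPM and the ETS1-High libraries 27.0, 25.9 and 24.99 CPM, with no overlap between groups. Its log2 fold changes from RFP were -1.85 (SE 0.047; adjusted p 7.75e-30) for ETS1-Low and -1.52 (SE 0.045; adjusted p 1.55e-27) for ETS1-High, by edgeR. ETS1-High exceeded ETS1-Low by 0.34 (SE 0.052; adjusted p 6.08e-07, edgeR). The 45 expressed genes within 5 Mb were mostly lower as well, with medians of -0.45 in ETS1-Low and -0.49 in ETS1-High against RFP. Of them, 84.4% and 86.7% lay below RFP. CSF1R, the related receptor for colony stimulating factor 1, lies 0.467 kb from PDGFRB on the chromosome. CSF1R went from 2.00 ± 0.20 CPM in the control to 0.10 ± 0.060 CPM (ETS1-Low) and 0.41 ± 0.11 CPM (ETS1-High, SD, n = 3).

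PDGFRA, KIT and KDR are neighbours, with 359 kb between PDGFRA and KIT and 338 kb between KIT and KDR. KIT, in the middle, changed by -0.018 in ETS1-Low and -0.13 in ETS1-High on the log2 scale, while the genes on both sides fell in both ETS1 groups. The 22 other expressed genes within 5 Mb of the 3 receptors, meaning those with a mean above 1 log2 CPM, showed median log2 changes from RFP of -0.091 (ETS1-High) and 0.0082 (ETS1-Low). They ranged from -1.11 (SPATA18) to 2.21 (IGFBP7) in ETS1-High and from -0.57 (EXOC1) to 1.10 (RASL11B) in ETS1-Low. None of these 22 fell as far as PDGFRA in either comparison. The nearest tested genes outside the trio were CHIC2 and LNX1 before PDGFRA and SRD5A3 and TMEM165 beyond KDR. In the order RFP, ETS1-Low, ETS1-High, the mean CPM of SRD5A3 was 15.0, 16.7 and 18.0, with TMEM165 at 44.3, 43.8 and 44.6 CPM, and CHIC2 at 4.26, 3.51 and 4.49 CPM. LNX1, 528 kb before PDGFRA and too low to be among the 22, was at 0.95, 0.089 and 0.039 CPM. It passed the filter on low counts through RFP, so its lower level in both ETS1 groups is a description.

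**Figure D2:**
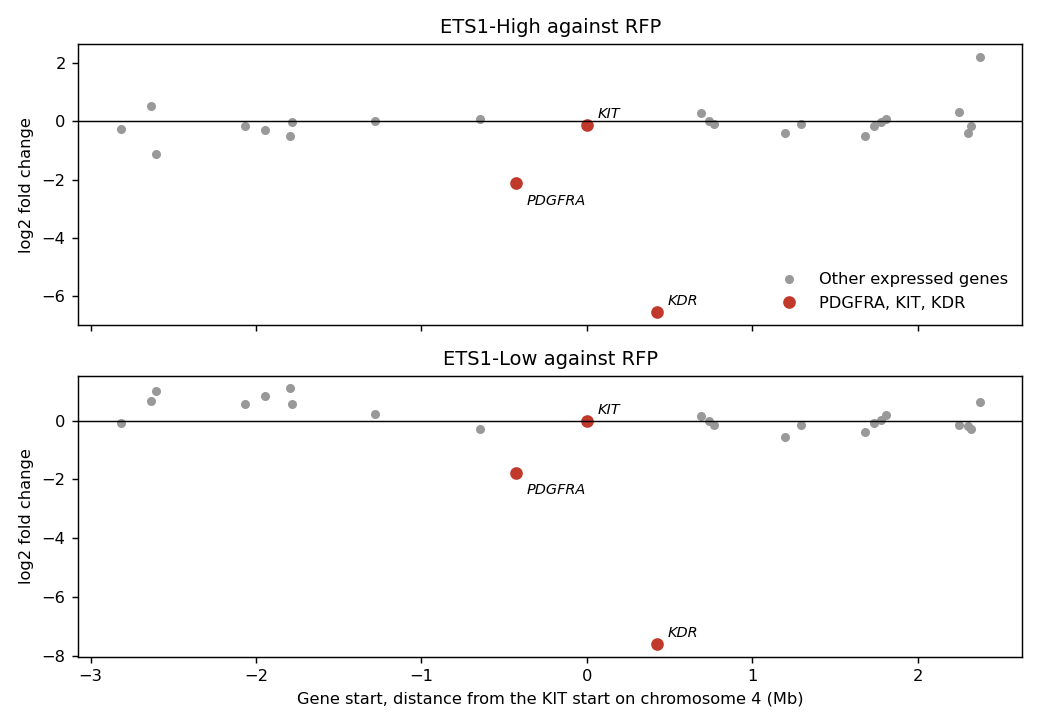
log2 fold change of expressed genes around PDGFRA, KIT and KDR against the distance of each gene's start from the KIT start in Mb, for ETS1-High against RFP (upper panel) and ETS1-Low against RFP (lower panel). PDGFRA (-2.12 and -1.77) and KDR (-6.55 and -7.61) lie below the grey points of the other 22 genes, and KIT lies near 0.

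Among the ligands, VEGFA and PGF fell in both ETS1 groups, PDGFC rose in both, and VEGFC went opposite ways. VEGFA (ENSG00000112715.21; chromosome 6, 43770184 to 43786487, plus strand), the hypoxia-regulated ligand of KDR and FLT1, was at 128.3, 132.5 and 131.5 CPM in RFP. The ETS1-Low libraries gave 74.2, 74.2 and 73.4 CPM and the ETS1-High libraries 54.4, 57.9 and 56.2 CPM. The groups stood apart in the order RFP, ETS1-Low, ETS1-High, with log2 fold changes of -0.82 (SE 0.032; adjusted p 1.56e-28, edgeR) and -1.22 (SE 0.033; adjusted p 1.48e-35, edgeR) against RFP and -0.40 (SE 0.034; adjusted p 1.35e-14, edgeR) between the ETS1 groups. VEGFA was the only one of the 10 genes that was called in the same direction at each step of that order with no overlap between any groups. The 58 expressed genes around it had medians of -0.070 in ETS1-Low and -0.055 in ETS1-High against RFP.

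PGF (ENSG00000119630.13; chromosome 14, 74941834 to 74955626, minus strand), placental growth factor, was at 35.8, 35.4 and 37.0 CPM in RFP. The ETS1-Low libraries gave 1.96, 1.85 and 1.71 CPM and the ETS1-High libraries 3.86, 3.49 and 4.12 CPM. As with KDR, both ETS1 groups were far below RFP and ETS1-Low was the lowest. Mean CPM was 19.6-fold lower in ETS1-Low and 9.43-fold lower in ETS1-High (log2 fold changes -4.29 and -3.24, adjusted p 1.31e-42 and 8.29e-40, edgeR). ETS1-High exceeded ETS1-Low by 1.06 (SE 0.11; adjusted p 2.44e-12, edgeR). The 63 expressed genes around PGF had medians of -0.17 and -0.14 against RFP.

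PDGFC (ENSG00000145431.10; chromosome 4, 156760454 to 156971799, minus strand) measured 14.4, 14.7 and 14.8 CPM in the RFP libraries, 42.1, 38.9 and 40.3 in those of ETS1-Low and 39.3, 40.2 and 38.5 in those of ETS1-High. The ETS1 groups overlapped each other and lay above RFP, by log2 fold changes of 1.47 (SE 0.046; adjusted p 1.41e-32, edgeR) and 1.43 (SE 0.046; adjusted p 3.87e-32, edgeR). ETS1-High minus ETS1-Low came to -0.039 (95% interval -0.12 to 0.044; adjusted p 0.432, edgeR). The 19 expressed genes within 5 Mb of PDGFC were mostly higher as well, with medians of 0.38 in ETS1-Low and 0.56 in ETS1-High. Of them, 26.3% lay below RFP in ETS1-Low and 0.0% in ETS1-High.

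VEGFC (ENSG00000150630.3; chromosome 4, 176683538 to 176792922, minus strand), the lymphatic growth factor, had 7 to 10 counts per library in RFP, 1 count in each ETS1-Low library and 38 to 66 counts in ETS1-High. In CPM these were 0.21, 0.19 and 0.14 in RFP, 0.026, 0.022 and 0.024 in ETS1-Low and 0.96, 1.16 and 1.48 in ETS1-High. The groups did not overlap, at a level where a few reads decide the value. The ratio of RFP to ETS1-Low was 7.46 (exact 95% interval 2.29 to 38.5), and that of ETS1-High to ETS1-Low was 49.9 (16.8 to 244.5), from counts summed over libraries and for counting error only. ETS1-High exceeded RFP by 2.72 on the log2 scale (SE 0.32), given as a description with no test, since VEGFC passed the filter through ETS1-High. The fall in ETS1-Low passed in edgeR (adjusted p 0.000247) and on log2(FPKM + 0.1) (adjusted p 0.0288, limma). It did not pass on log2(FPKM + 1), where its adjusted p was 0.194 or 0.248 (limma). VEGFC was not tested when only RFP and ETS1-Low were fitted, since it then failed the filter. The 10 expressed genes within 5 Mb were mostly higher in both groups, with medians of 0.90 in ETS1-Low and 1.18 in ETS1-High. Of them, 10.0% lay below RFP in ETS1-Low and 0.0% in ETS1-High.

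**Figure D3:**
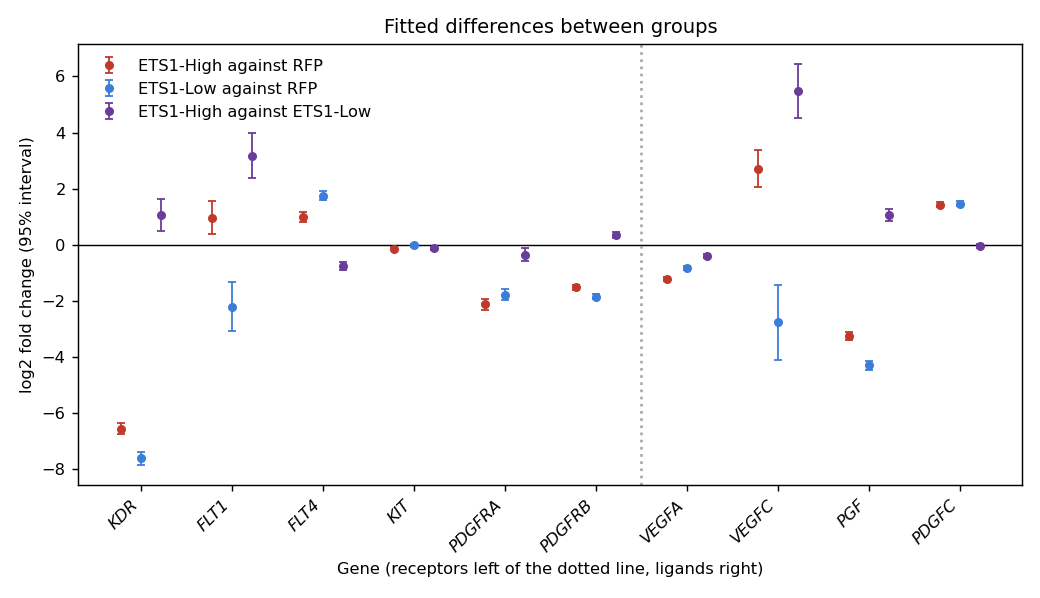
Fitted log2 fold changes with 95% intervals for each gene in the 3 comparisons. KDR and PGF have the lowest values against RFP, FLT1 and VEGFC lie on opposite sides of 0 in ETS1-Low and ETS1-High, and the wide intervals belong to the genes with few counts.

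Counted together, 10 of 10 members were called in ETS1-High against RFP, with 4 above and 6 below RFP, and 7 of these passed 2-fold. None of the 10 overlapped between these groups, but the share of all genes without overlap was not computed for this or the other comparisons. A call here is an adjusted p under 0.05 (edgeR, quasi-likelihood), after Benjamini and Hochberg over all tested genes. Across all tested genes 74.2% were called in this comparison, 37.0% higher and 37.2% lower, and 21.0% were called with a change of at least 2-fold. Of the members, 6 of 6 receptors were called (2 higher, 4 lower) and 4 of 4 ligands (2 higher, 2 lower). In ETS1-Low against RFP 9 members were called (2 above RFP, 7 below) and 8 passed 2-fold; the same 9, all but KIT, did not overlap. The shares over all genes were 74.1% called, 37.9% higher, 36.2% lower and 20.6% at least 2-fold. In ETS1-High against ETS1-Low 9 were called, 5 of them higher, 4 lower, 4 past 2-fold and 8 with no overlap, where all genes gave 59.2% called, 29.9% higher, 29.3% lower and 9.74% at least 2-fold. A call alone therefore says little, since most genes were called. The median log2 fold change of the 10 was -0.68 for ETS1-High minus RFP, -1.81 for ETS1-Low minus RFP and 0.15 between the ETS1 groups, beside medians of -0.0094, 0.010 and -4.67e-05 over all genes. Both comparisons with RFP share the RFP libraries. These counts and medians include VEGFC, which entered the test through the group where it is high, and are descriptions.

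Levels between genes were compared per length, in the deposited FPKM. In RFP the order was VEGFA (51.2 ± 0.92 FPKM), KIT (39.9 ± 0.98), PGF (23.9 ± 0.50), PDGFRB (20.6 ± 1.26), KDR (8.36 ± 0.41) and PDGFC (6.40 ± 0.44; SD, n = 3). PDGFRA and FLT4 followed at 2.67 ± 0.065 and 2.66 ± 0.46 FPKM and overlapped, as did FLT1 and VEGFC at 0.11 and 0.10 FPKM. In ETS1-Low KIT led at 35.6 ± 0.31 FPKM, followed by VEGFA (26.7 ± 1.05), PDGFC (16.3 ± 0.67), FLT4 (8.32 ± 0.66) and PDGFRB (4.68 ± 0.32). PGF and PDGFRA came next at 1.17 ± 0.062 and 0.71 ± 0.11 FPKM, and KDR, FLT1 and VEGFC, each at most 0.05 FPKM, overlapped. In ETS1-High the order was again KIT (33.4 ± 1.41 FPKM), VEGFA (20.4 ± 0.41) and PDGFC (15.5 ± 0.38). PDGFRB (5.81 ± 0.50) and FLT4 (5.15 ± 0.95) overlapped, and so did PDGFRA (0.74 ± 0.095) and VEGFC (0.63 ± 0.14). PGF lay between these pairs at 2.38 ± 0.32 FPKM, and FLT1 (0.17 ± 0.017) and KDR (0.083 ± 0.015) came last.

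The receptors' summed FPKM fell from 74.3 ± 0.48 in RFP to 49.4 ± 0.83 in ETS1-Low and 45.4 ± 1.498 in ETS1-High. KIT made up 53.7% ± 1.27 of that sum in RFP, 72.1% ± 0.64 in ETS1-Low and 73.6% ± 0.97 in ETS1-High. The share of KDR went from 11.3% ± 0.49 in RFP to 0.088% ± 0.024 and 0.18% ± 0.034, and that of FLT4 from 3.58% ± 0.65 to 16.8% ± 1.08 and 11.3% ± 2.03. The most abundant VEGF receptor transcript per length was thus KDR in RFP and FLT4 in both ETS1 groups. Among the 4 ligands the sum fell from 81.6 ± 1.12 to 44.1 ± 0.92 and 38.9 ± 0.79 FPKM. The share of PDGFC rose from 7.84% ± 0.43 to 36.9% ± 1.62 and 39.8% ± 1.05, and that of PGF went from 29.3% ± 0.77 to 2.65% ± 0.089 and 6.11% ± 0.76. These sums describe transcripts and were not tested.

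**Figure D4:**
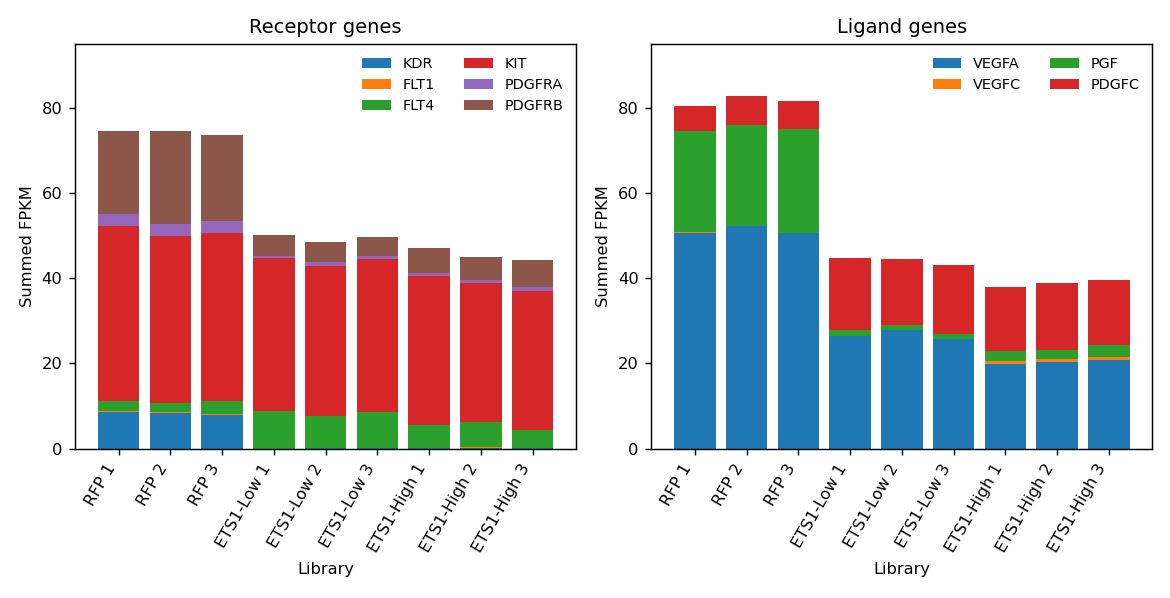
Stacked bars of deposited FPKM for the 6 receptors (left) and the 4 ligands (right) in each library, from 0. KIT fills most of every receptor bar, the KDR segment is visible in the RFP libraries only, and PDGFC takes a larger part of the ligand bars in the ETS1 groups.

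The rest of the pathway was followed through a list of 77 other genes, 72 of which were tested. Against RFP, 63 were called in ETS1-High, with 26 higher and 37 lower, and 68 in ETS1-Low, with 21 higher and 47 lower, beside 74.2% and 74.1% called over all genes. Between the ETS1 groups 50 were called, 29 of them higher in ETS1-High, beside 59.2% over all genes. Their median log2 fold changes were -0.11, -0.30 and 0.087. These counts and medians include genes that passed the filter through RFP, where they were high, among them PDGFA, NRP2, PCSK5 and TEK. The ligands that are not members were mostly low: VEGFD, which the files list as FIGF, had 3 to 16 counts per library and PDGFB 0 to 13, and neither was tested. PDGFA had 16 to 32 counts in RFP, 0, 4 and 0 in ETS1-Low and 1 to 3 in ETS1-High. It passed the filter through RFP, so its lower level in the ETS1 groups is given as a description with no test. Its fitted fold in ETS1-Low rested on replicate 2, without which that group had no PDGFA count and the log2 fold change went from -3.75 to -7.37, while the difference between the ETS1 groups became a call (4.33, adjusted p 0.0384).

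VEGFB, a ligand of FLT1, rose from 28.6 ± 1.29 CPM in RFP to 57.6 ± 1.22 in ETS1-Low and 51.3 ± 1.37 in ETS1-High (SD, n = 3; adjusted p 2.68e-28 and 6.80e-25, edgeR). KITLG, which encodes the KIT ligand stem cell factor, fell from 2.93 ± 0.18 CPM to 0.24 ± 0.13 in ETS1-Low and 1.23 ± 0.21 in ETS1-High (adjusted p 5.84e-19 and 1.74e-08, edgeR; SD, n = 3). The KIT ligand thus fell while the receptor KIT hardly moved. PDGFD, a ligand of PDGFRB, went from 3.55 ± 0.29 CPM in the control to 0.27 ± 0.048 (ETS1-Low) and 2.56 ± 0.33 (ETS1-High), and its small fall in ETS1-High (log2 fold change -0.48, adjusted p 0.0018, edgeR) was not called on log2(FPKM + 0.1) (adjusted p 0.0705, limma).

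The neuropilins are co-receptors that hold VEGF on the cell surface. NRP2 had 247 to 270 counts in RFP and 0 to 4 counts in every ETS1 library. It passed the filter on low counts through RFP, so this fall is given as a description with no test. NRP1 fell in ETS1-Low only by the test, from 6.28 ± 0.31 to 2.72 ± 0.42 CPM (log2 fold change -1.20, adjusted p 4.44e-13, edgeR; SD, n = 3). In ETS1-High it was at 5.99 ± 0.91 CPM (log2 fold change -0.072, adjusted p 0.529, edgeR), and the difference between the ETS1 groups was itself called (1.13, adjusted p 9.70e-12, edgeR).

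Of the 8 genes that process or bind these ligands, 7 were tested, and in each ETS1 group 2 were called higher and 5 lower than in RFP, beside 74.2% (ETS1-High) and 74.1% (ETS1-Low) of all genes called either way. The 5 lower include PCSK5 and ADAMTS3, which passed the filter through RFP, so their calls are descriptions. ADAMTS3 had 29 to 45 counts in RFP and 0 to 5 in the ETS1 libraries. PCSK5, a proprotein convertase, went from 8.10 ± 0.40 CPM in RFP to 0.049 and 0.084 CPM in ETS1-Low and ETS1-High, with 2 to 5 counts per library there. It passed the filter through RFP, so its fall is a description. The related convertase PCSK6 rose from 0.71 ± 0.14 to 14.3 ± 0.24 and 4.84 ± 0.20 CPM (SD, n = 3). PLAU, which encodes urokinase, fell from 7.36 ± 0.40 to 4.10 ± 0.15 and 1.48 ± 0.26 CPM. Of the related kinases CSF1R, FLT3, TEK and TIE1, only CSF1R and TEK passed the filter, TEK through RFP. CSF1R was called lower in both ETS1 groups, beside 37.2% (ETS1-High) and 36.2% (ETS1-Low) of all genes. The lower level of TEK in both is a description with no test.

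Among 34 proximal signalling genes, 29 were called in ETS1-High against RFP (15 higher, 14 lower) and 33 in ETS1-Low against RFP (13 higher, 20 lower), where all genes gave 74.2% and 74.1%. FYN, a Src family kinase, fell from 54.4 ± 1.45 CPM in RFP to 14.04 ± 1.29 in ETS1-Low and 18.3 ± 0.67 in ETS1-High. SH2D2A, an adaptor that binds KDR, fell from 3.47 ± 0.17 to 1.17 ± 0.25 and 0.63 ± 0.020 CPM. The docking protein gene GAB1 rose from 9.53 ± 0.42 to 26.1 ± 0.33 and 27.9 ± 0.48 CPM (SD, n = 3 throughout).

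Of 16 negative regulators, 14 were called in ETS1-High against RFP (6 higher, 8 lower) and 13 in ETS1-Low against RFP (5 higher, 8 lower). That was 87.5% and 81.25%, beside 74.2% and 74.1% of all genes. The Sprouty genes SPRY4 and SPRY2, feedback inhibitors of receptor kinase signalling, both fell. SPRY4 went from 8.48 ± 0.61 CPM in RFP to 2.69 ± 0.24 in ETS1-Low and 0.39 ± 0.036 in ETS1-High, and SPRY2 from 7.06 ± 0.46 to 2.28 ± 0.26 and 2.98 ± 0.38 CPM (SD, n = 3). CBLB, a ubiquitin ligase for activated receptors, fell from 24.4 ± 1.00 to 15.8 ± 1.19 and 15.0 ± 0.43 CPM.

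The 7 genes of the oxygen-sensing system that regulates VEGFA were all called lower in ETS1-Low against RFP, while 2 were higher and 4 lower in ETS1-High. Over all genes 36.2% were called lower in ETS1-Low, and 37.0% higher and 37.2% lower in ETS1-High. EPAS1, which encodes HIF-2 alpha, was at 43.6 ± 3.19 CPM in RFP, 37.6 ± 0.68 in ETS1-Low and 72.9 ± 2.54 in ETS1-High. It rose in ETS1-High (log2 fold change 0.74, adjusted p 9.60e-21, edgeR), where VEGFA was lowest. The part of these genes in the VEGFA result was not tested. EGLN3, a hypoxia-induced prolyl hydroxylase, fell from 7.83 ± 0.78 to 4.23 ± 0.25 and 2.45 ± 0.42 CPM, and VHL, which marks HIF for degradation, from 59.4 ± 0.88 to 47.9 ± 1.08 and 45.3 ± 0.99 CPM (SD, n = 3).

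**Figure D5:**
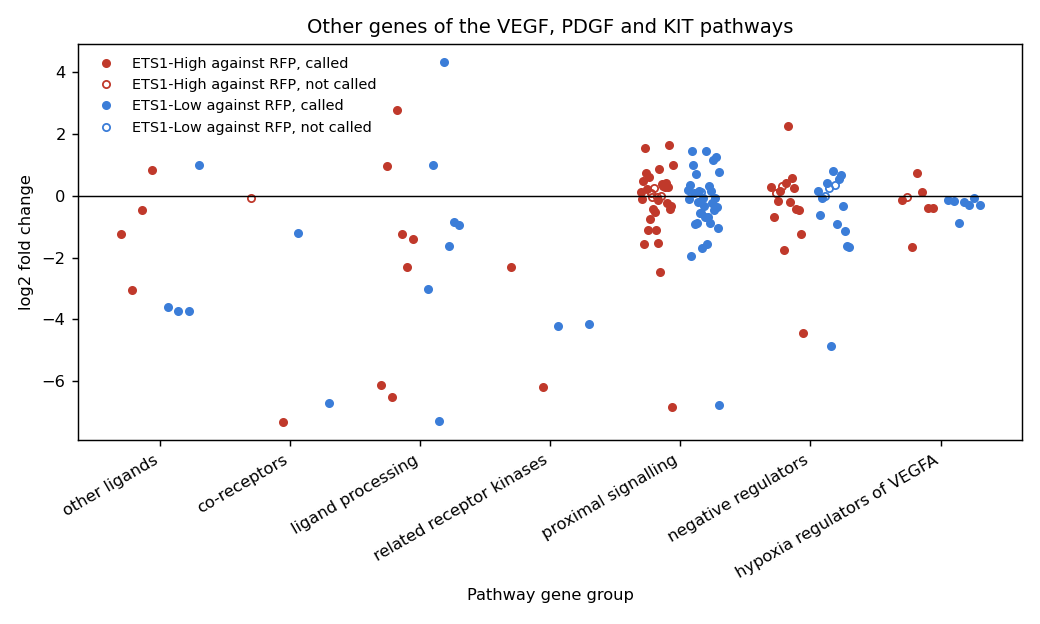
log2 fold changes of the 72 tested pathway genes by functional group, for ETS1-High (red) and ETS1-Low (blue) against RFP, with filled points for called genes and open points for the others. Most groups hold genes on both sides of 0, and the lowest points include NRP2 and PCSK5.

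Markers of vessel and mast cells were examined beside the receptors, since KDR, PDGFRB and KIT also mark such cells. All libraries were made from the cultured line TC-32, so the markers are read here as transcripts of that line. Bulk libraries do not separate fewer cells expressing a gene from less RNA per cell. The 9 endothelial markers had summed levels of 3.24 to 3.45 CPM in the RFP libraries, 4.59 to 5.10 in those of ETS1-Low and 6.31 to 7.19 in those of ETS1-High. Of the 5 that were tested, 2 were called higher and 1 lower in each ETS1 group than in RFP. Over all genes 37.0% were called higher and 37.2% lower in ETS1-High, and 37.9% and 36.2% in ETS1-Low. The sum was carried by PECAM1, at 1.70 ± 0.12, 3.69 ± 0.23 and 5.16 ± 0.30 CPM in that order (SD, n = 3), which rose together with CLDN5. TEK went the way of KDR, with 32 to 41 counts in RFP and 0 to 4 in the ETS1 libraries. TEK passed the filter through RFP, and CLDN5, with 2 to 4 counts in RFP, through the ETS1 groups, so the calls of TEK and CLDN5 are descriptions. ESAM and EMCN were not called. Among the untested markers VWF had 10, 1 and 1 counts in RFP and 0 in every ETS1 library, ERG had 0 to 2 in RFP and 0 elsewhere, and CDH5 and TIE1 had at most 6 and 2 in any library. The part of these markers in the KDR result was not tested. The 7 pericyte markers had summed levels of 481.6 to 492.3 CPM in the RFP libraries, 111.4 to 113.9 in those of ETS1-Low and 124.0 to 138.6 in those of ETS1-High, which moved with PDGFRB. In RFP that sum was mostly RGS5 (287.2 ± 4.12 CPM in RFP, 6.74 ± 0.49 in ETS1-Low and 16.4 ± 0.30 in ETS1-High) and NOTCH3, while CSPG4 had at most 11 counts. In the ETS1 groups NOTCH3 led, at 92.3 ± 1.71 CPM in ETS1-Low and 83.7 ± 5.40 in ETS1-High. ACTA2 went from 43.7 ± 0.76 CPM in RFP to 12.7 ± 0.27 in ETS1-Low and 31.0 ± 3.23 in ETS1-High. ANPEP went the other way, from 0.48 ± 0.15 CPM to 1.02 ± 0.11 and 1.19 ± 0.16 CPM. In each ETS1 group 4 of the 5 tested markers were called against RFP, 1 higher and 3 lower. The shares over all genes were 74.2% (ETS1-High) and 74.1% (ETS1-Low). The part of this set in the PDGFRB result was not tested. The 5 mast cell markers had summed levels of 4.08 to 4.96 CPM in the RFP libraries, 0.56 to 0.71 in those of ETS1-Low and 0.36 to 0.58 in those of ETS1-High, while KIT hardly moved. In RFP the sum was mostly TPSAB1 (3.53 ± 0.50 CPM) and TPSB2 (1.06 ± 0.040 CPM). HDC went otherwise, with 0 to 4 counts in RFP, 7 to 8 in ETS1-Low and 1 in each ETS1-High library. CPA3 had 0 counts in every library and MS4A2 at most 1. All 8 Ewing sarcoma markers, CD99 and NKX2-2 among them, were above 0 counts in every library. All 8 were called higher than in RFP in both groups, beside 37.0% (ETS1-High) and 37.9% (ETS1-Low) of all genes. NKX2-2 moved little in ETS1-High, from 89.5 ± 1.84 to 96.2 ± 7.24 CPM (SD, n = 3), and its libraries overlapped those of RFP.

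For each member the gene with the most similar profile was sought among 13696 tested genes with a mean of at least 1 CPM, as the smallest root mean square distance between centred log2 CPM over the 9 libraries. BEX1 came nearest to KDR (distance 0.25), at 52.0 ± 2.14 CPM in RFP, 0.33 ± 0.092 in ETS1-Low and 0.62 ± 0.12 in ETS1-High (SD, n = 3). ABCA1 came nearest to PGF (0.19), at 33.4 ± 0.50, 1.59 ± 0.37 and 4.01 ± 0.28 CPM. CAMK2N1 was nearest to FLT1 (0.27) and TSPAN11 to VEGFC (0.29), both with their lowest level in ETS1-Low and their highest in ETS1-High. RPP25 (0.078) was nearest to FLT4, SLC2A3 (0.13) to PDGFRA, TDRKH (0.061) to PDGFRB, CKB (0.042) to VEGFA and SLC35F1 (0.039) to PDGFC. The 9 libraries fall into 3 groups, so these distances rest mainly on the group means.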

How the data were processed

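The authors deposited expected counts per gene and FPKM values rounded to 2 decimals; the names of the deposited tables credit both to RSEM. The submitters' processing notes name cutadapt 4.4, STAR 2.7.3, featureCounts, Subread 2.0.3, limma 3.38.3 and GRCh38, with no roles; the annotation and the strand setting of the counting are not given in the sources used here. Columns were matched to libraries by name, with L and H read as Low and High. Library totals were 39484704 to 46654734 expected counts, with 9.00% to 10.3% of values not whole, and replicate libraries differed by more than sampling noise (chi-square per gene 2.66 to 5.19). A count interval covers counting error only.

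Expected counts were rounded and tested with edgeR 4.0.16 in R 4.3.3 (TMM, filterByExpr, robust glmQLFit, 1 fit of all 9 libraries, Benjamini-Hochberg over 17235 genes); the script was tested on simulated data. SE is the log2 fold change divided by the square root of F. CPM uses TMM-scaled library sizes. FPKM alternatives used limma 3.58.1, and DESeq2 1.42.0 was run beside edgeR. Positions are from GENCODE 44 on GRCh38, matched by gene identifier.

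The members, lists and tests were chosen with earlier results of these data known. Singly named genes were ETS1, all members, the other ligands and co-receptors, up to 3 called pathway genes per group with the largest change in ETS1-High against RFP and a mean of at least 50 counts, the genes beside the members and the nearest profiles. CSF1R, TEK, marker genes and the extremes of the chromosome 4 region were named outside this rule, after their values were seen. Exons of VEGFA and PDGFRA each overlap 1 other annotated gene, with at most 2 and 0 counts in a library. The nearest profile to KIT is not reported here.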

Additional observations from a re-analysis of the deposited data

Results flagged for a closer look

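The effect of ETS1-High against RFP was called different from that of ETS1-Low against RFP in 9 of the 10 members. The call came from the edgeR test of ETS1-High against ETS1-Low, in which the shared RFP libraries cancel. The 9 include VEGFC, which is a description only. Over all tested genes 59.2% were called in this comparison. The log2 differences were 3.18 for FLT1, 1.06 for PGF, 1.05 for KDR, 0.34 for PDGFRB, -0.12 for KIT, -0.35 for PDGFRA, -0.40 for VEGFA and -0.77 for FLT4. The call for PDGFRA was lost without single libraries, and those for PDGFRA, KDR and KIT did not pass on FPKM. For FLT1 the direction against RFP was itself opposite in ETS1-Low and ETS1-High. The value for VEGFC, 5.48, is a description: VEGFC passed the filter on low counts through ETS1-High, and it had 1 count in each ETS1-Low library.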

How the results depend on the processing

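Under 18 alternatives (another normalisation, DESeq2, other filters, FPKM values with limma, only the groups compared, the replicate block and each library left out) the called members numbered 7 to 10 in ETS1-High against RFP, 6 to 9 in ETS1-Low against RFP and 6 to 9 between the ETS1 groups. Of 530 recomputed member fold changes 508 kept their direction and their side of the threshold, 16 lost the call, 3 gained one and 3 changed sign. With at least 10 counts in every library, KDR, FLT1 and VEGFC were not tested. Leaving out 1 library gave 10, 9 and 8 to 9 called members. The sign changed for PDGFRA between the ETS1 groups (0.062, 0.029 and 0.029 on FPKM), CBLB (0.016, 0.013 and 0.013 on FPKM), NRP2 (0.16, 0.027 and 0.027 on FPKM, and -1.80 to 0.37 with 1 library left out) and, against RFP, NRP1 in ETS1-High (-0.16 to 0.046 with 1 library left out). The cause was not tested. On FPKM the share of higher among called genes fell from 49.8% to between 38.1% and 40.2% in ETS1-High and from 51.2% to between 36.5% and 39.4% in ETS1-Low, and with log2(FPKM + 0.1) the median of all genes moved to -0.11 in both. Few counts limit FLT1, VEGFC and the remainder of KDR.

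The replicate numbers did not pair the libraries: same-numbered libraries deviated from their group means with correlations of -0.029 to 0.028 across genes. With the replicate block 12701, 12729 and 10122 genes were called in place of 12785, 12773 and 10196, and 10, 9 and 9 members as before.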
